A study of Mus musculus with 37 samples.

Results

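A set of 9 genes of G protein signaling was followed in uterine NK (uNK) cells, the NK cells that accumulate in the pregnant uterus. They were the adhesion G protein-coupled receptor genes Adgrg1, Adgrg3 and Adgre5, the G protein alpha subunit genes Gna15 and Gnai2, and the regulator of G protein signaling genes Rgs1, Rgs2, Rgs3 and Rgs16. These 9 genes were taken by name from the 53700 genes counted in each of 37 libraries. They were chosen by their CPM in WT mice, since Gna15 was higher in NKG2A+ cells and Adgrg1 was lower in Ly49C/I+ cells in these same data, so the values of those WT comparisons are a description and carry no test here. CPM are the reads of a gene scaled to the same library size in every library.

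The cells came from the uterus of C57BL6 mice at gestation day 9.5 to 10.5 and were sorted as live CD45+ NKp46+ cells, with T and B lymphocytes and cells with high CD11b gated out. Cells that carry an inhibitory receptor for self MHC are called educated, and the sort split uNK cells by Ly49C/I and NKG2A. WT mice gave 9 uneducated libraries (Ly49C/I-, NKG2A-), 9 NKG2A+ libraries (Ly49C/I-) and 6 Ly49C/I+ libraries (NKG2A-), and NKG2A KO mice on C57BL6 gave 8 uneducated and 5 Ly49C/I+ libraries. Cells positive for both receptors were not collected. The authors list the antibody for NKG2A as NKG2AC/E, so the gate may not be specific to NKG2A. In NKG2A KO mice the NKG2A- gate cannot use NKG2A itself to remove cells that would otherwise have carried it. The KO groups are therefore not the exact counterpart of the WT groups. The labels do not say which mouse or pool of mice each library came from, and p-values therefore measure the spread between libraries, which may be partly technical.

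Adhesion receptors are cleaved by their own extracellular GAIN domain, and the short sequence exposed at the cut, a tethered ligand, can switch the receptor on. Inside the cell the receptor acts through a heterotrimeric G protein, whose alpha subunit is active while it holds GTP. RGS proteins speed up the hydrolysis of that GTP and so shorten the signal. In lymphocytes the best known use of this machinery is migration toward chemokines through Gi, and in human NK cells ADGRG1, also called GPR56, is known as an inhibitory receptor.

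Each library held 13287163 to 18875033 reads on genes (median 17273311), and between 13982 and 17859 genes had a read. Of 3 genes of the sorted receptors, Klrc1 and Klra9 followed the labels and Klra3 did not. Klrc1, which encodes NKG2A, reached 494 to 756 CPM in WT NKG2A+ libraries and at most 13.9 CPM in the other libraries. Klra9, which encodes Ly49I, reached 461 to 1128 CPM in Ly49C/I+ libraries and 50.1 to 124 CPM elsewhere. Klra3, which encodes Ly49C, went the other way, with 25.1 to 81.5 CPM in WT Ly49C/I+ against 68.9 to 213 CPM in WT uneducated libraries, and 79.8 to 106 CPM against 112 to 179 CPM in KO mice. The Ly49 genes are close paralogs whose reads the counting could split, and the part of this in the Klra3 and Klra9 values was not tested. All 9 NK markers examined, among them Ncr1 and Eomes, averaged at least 5 CPM in every group. The 8 T cell markers summed to 86.4 to 240.4 CPM, mostly Cd3g and Trac, while Cd4 and Cd8a averaged at most 0.373 CPM in any group. Sums reached at most 58.4 CPM for neutrophil, 14.5 CPM for platelet and 30.8 CPM for stromal markers. Libraries 1 of WT NKG2A+ and 1 of WT Ly49C/I+ held the highest sums of macrophage and monocyte markers, 266 and 373 CPM, against at most 138 CPM in the uneducated libraries of either genotype.

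The genes Adgrg1 and Adgrg3 are neighbours on chromosome 8 (GRCm38). Adgrg1 lies at chr8:94974751-95014217 and Adgrg3 at chr8:95017692-95045250, both on the plus strand and within 70500 bases. The gap between the end of Adgrg1 and the start of Adgrg3 is 3474 bases. Their promoters are shown because both neighbours had lower mean levels in educated than in uneducated cells of either genotype. The 200 bases before each RefSeq start (GRCm38.p6, plus strand, 5′ to 3′) are printed with matches to 6 searched motifs in capitals.
Adgrg1, chr8:94976909-94977108: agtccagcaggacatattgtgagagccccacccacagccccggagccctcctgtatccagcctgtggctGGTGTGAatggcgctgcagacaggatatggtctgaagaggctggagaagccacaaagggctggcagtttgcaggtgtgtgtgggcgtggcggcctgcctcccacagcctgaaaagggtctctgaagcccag
Adgrg1, chr8:94984199-94984398: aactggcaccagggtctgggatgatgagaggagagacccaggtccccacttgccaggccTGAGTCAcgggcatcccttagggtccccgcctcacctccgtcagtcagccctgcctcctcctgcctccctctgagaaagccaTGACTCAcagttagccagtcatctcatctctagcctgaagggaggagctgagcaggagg
Adgrg3, chr8:95017492-95017691: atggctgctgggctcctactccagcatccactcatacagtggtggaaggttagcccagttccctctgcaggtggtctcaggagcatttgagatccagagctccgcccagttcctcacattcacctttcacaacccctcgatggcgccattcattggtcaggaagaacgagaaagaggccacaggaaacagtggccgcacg

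The motifs were searched on both strands and no matches overlapped in these windows. The first Adgrg1 promoter held the T-box letters GGTGTGA at position -131 from the start, which 2.639% of all 32851 promoters in the table hold. The second held the AP-1 letters TGANTCA at -141 and at -59, found in 5.479% of all promoters. The RUNX letters TGTGGT, the ETS letters CCGGAA, the CRE letters TGACGTCA and the TATA letters TATAAA had no match in these 3 windows and are held by 11.156%, 10.691%, 1.47% and 9.96% of all promoters. A match describes letters and is not evidence of binding.

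Adgrg1 was highest in uneducated cells of both genotypes and lowest in WT Ly49C/I+ cells. The 9 WT uneducated libraries ran from 4.69 to 45.8 CPM (median 14.7). The 9 NKG2A+ libraries ran from 1.44 to 14.2 CPM (median 3.48), and each lay below the median of the uneducated libraries. Of the 6 WT Ly49C/I+ libraries, numbers 1 and 2 held 60 and 74 reads (3.70 and 4.40 CPM), and numbers 4, 5, 7 and 8 held none. Numbers 1 and 2 also had the most genes with a read, 17351 and 17859. Numbers 4, 5, 7 and 8 had 15233, 14038, 15783 and 14989, and the part of this in their counts of 0 was not tested. A count of 0 allows up to 3 reads, or 0.182 CPM at the median depth of that group, for counting error only. All 6 lay below the lowest uneducated library, a separation that 2.46% of all genes had. This comparison chose Adgrg1, and the gene passed the filter of 5 CPM through the uneducated libraries alone. The separation is therefore a description and not a measure of how unusual the gene is. The log2 fold change of Adgrg1 against uneducated cells was -2.30 (SE 0.496) in NKG2A+ cells and -4.02 (SE 1.06) in WT Ly49C/I+ cells. In bulk libraries fewer cells that express a gene and less RNA per cell cannot be told apart.

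The choice of the genes rested on WT values, but earlier results of these data were known. The tests in NKG2A KO libraries are therefore not fully independent of that choice. Adgrg1 ran from 3.08 to 38.6 CPM in the 8 KO uneducated libraries (median 13.2) and reached 3.22, 8.00, 0.870, 11.8 and 1.48 CPM in the 5 KO Ly49C/I+ libraries. All 5 lay below the uneducated median, but the groups overlapped, and the spread among uneducated libraries was wide (mean 17.5 ± 12.7 CPM, SD, n = 8). The log2 fold change of -1.79 (SE 0.643) did not pass edgeR's quasi-likelihood test with Benjamini-Hochberg adjustment over all genes (adjusted p = 0.0661). The two-sided exact permutation test of Adgrg1 alone, 1 of 2 such tests and not adjusted, gave p = 0.0357 over 1287 arrangements. The edgeR call was gained without KO uneducated library 4 (adjusted p = 0.034) or without KO Ly49C/I+ library 7 (adjusted p = 0.0352). With the replicate number as a block the log2 fold change shrank to -1.18 (edgeR adjusted p = 0.39).

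Adgrg3, which encodes GPR97, followed the direction of its neighbour Adgrg1 at a higher level and with a smaller difference. Per kilobase of exon it averaged 8.16 CPM in WT uneducated cells, against 4.10 CPM for Adgrg1. Levels ran from 25.0 to 83.9 CPM in WT uneducated libraries (median 65.3), 15.4 to 49.0 CPM in NKG2A+ libraries (median 30.1) and 14.0 to 26.9 CPM in WT Ly49C/I+ libraries (median 22.2). Fold changes on the log2 scale were -0.88 (SE 0.235) and -1.36 (SE 0.254), and in both comparisons every educated library lay below the uneducated median. In KO mice the uneducated libraries ran from 26.7 to 65.8 CPM (median 39.2), and the 5 Ly49C/I+ libraries reached 18.4, 25.4, 19.9, 24.8 and 34.0 CPM. Of these 5, 4 lay below the lowest uneducated library, and Adgrg3 fell by 0.81 on the log2 scale (SE 0.235, edgeR adjusted p = 0.0264). The call was lost without KO uneducated library 1 or 3 (adjusted p = 0.0502 and 0.0521) and without KO Ly49C/I+ library 4, 6 or 7 (0.0751, 0.0647 and 0.0515), with the direction kept. It was also lost without the filter on low counts (adjusted p = 0.0661) and with all 5 groups in 1 fit (0.051). With the replicate number as a block the log2 fold change was -0.55 and the call was lost (edgeR adjusted p = 0.118). The labels do not tie these numbers to mice.

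Summed markers of other cells also had lower ranges in KO Ly49C/I+ than in KO uneducated libraries. In KO mice the 6 mast cell and basophil markers summed to 42.4 to 87.9 CPM in uneducated and 14.9 to 37.6 CPM in Ly49C/I+ libraries. Most of this came from Kit, Mcpt8 and Cpa3, while Fcer1a and Ms4a2 averaged at most 0.178 CPM in any group. The 5 endothelial markers summed to 176 to 342 CPM and 128 to 196 CPM, almost wholly Pecam1, with Cdh5, Kdr, Tek and Emcn each below 1 CPM on average. The 6 trophoblast and epithelial markers summed to 35.2 to 75.6 CPM and 10.1 to 33.7 CPM, mostly Epcam, and Prl3d1 and Prl2c2 each averaged at most 0.506 CPM in any group. In WT uneducated, NKG2A+ and Ly49C/I+ libraries the mast cell and basophil sums were 48.3 to 125, 21.7 to 61.1 and 27.3 to 56.8 CPM. In the same order the endothelial sums were 217.2 to 346, 122 to 202 and 140.5 to 217.0 CPM. The trophoblast and epithelial sums were 46.6 to 205, 19.6 to 80.7 and 26.5 to 44.8 CPM. The part of these markers in the lower Adgrg1 and Adgrg3 levels was not tested in either genotype.

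Adgre5 encodes CD97, a leukocyte receptor that binds CD55. Per kilobase it was the most abundant of the 3 receptors in every group, from 65.3 CPM in WT uneducated to 138 CPM in KO Ly49C/I+ cells. It ran from 141 to 385 CPM in WT uneducated libraries (median 216) and from 393 to 618 CPM in NKG2A+ libraries (median 451), with no overlap (2.07% of all genes had none in this comparison) and a log2 fold change of 1.00 (SE 0.158). The WT Ly49C/I+ libraries ran from 276 to 509.9 CPM (median 308), with a log2 fold change of 0.51 (SE 0.191). The highest of them was number 1, the library with the highest macrophage marker sum.

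In KO mice Adgre5 rose in Ly49C/I+ cells. Uneducated libraries ran from 218 to 456 CPM (median 329), and the 5 Ly49C/I+ libraries reached 628, 522, 524, 537 and 384 CPM, of which 4 lay above every uneducated library. The log2 fold change was 0.66 (SE 0.153, edgeR adjusted p = 0.00829), and this call held in each of 22 alternative settings. Markers of macrophages and monocytes, which also express Adgre5, summed to 21.9 to 75.7 CPM in KO uneducated and 7.94 to 135 CPM in KO Ly49C/I+ libraries (medians 63.2 and 29.8). Adgre5 overlaps Ddx39 on the opposite strand, and whether the counting used strand is not known here.

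**Figure D1:**
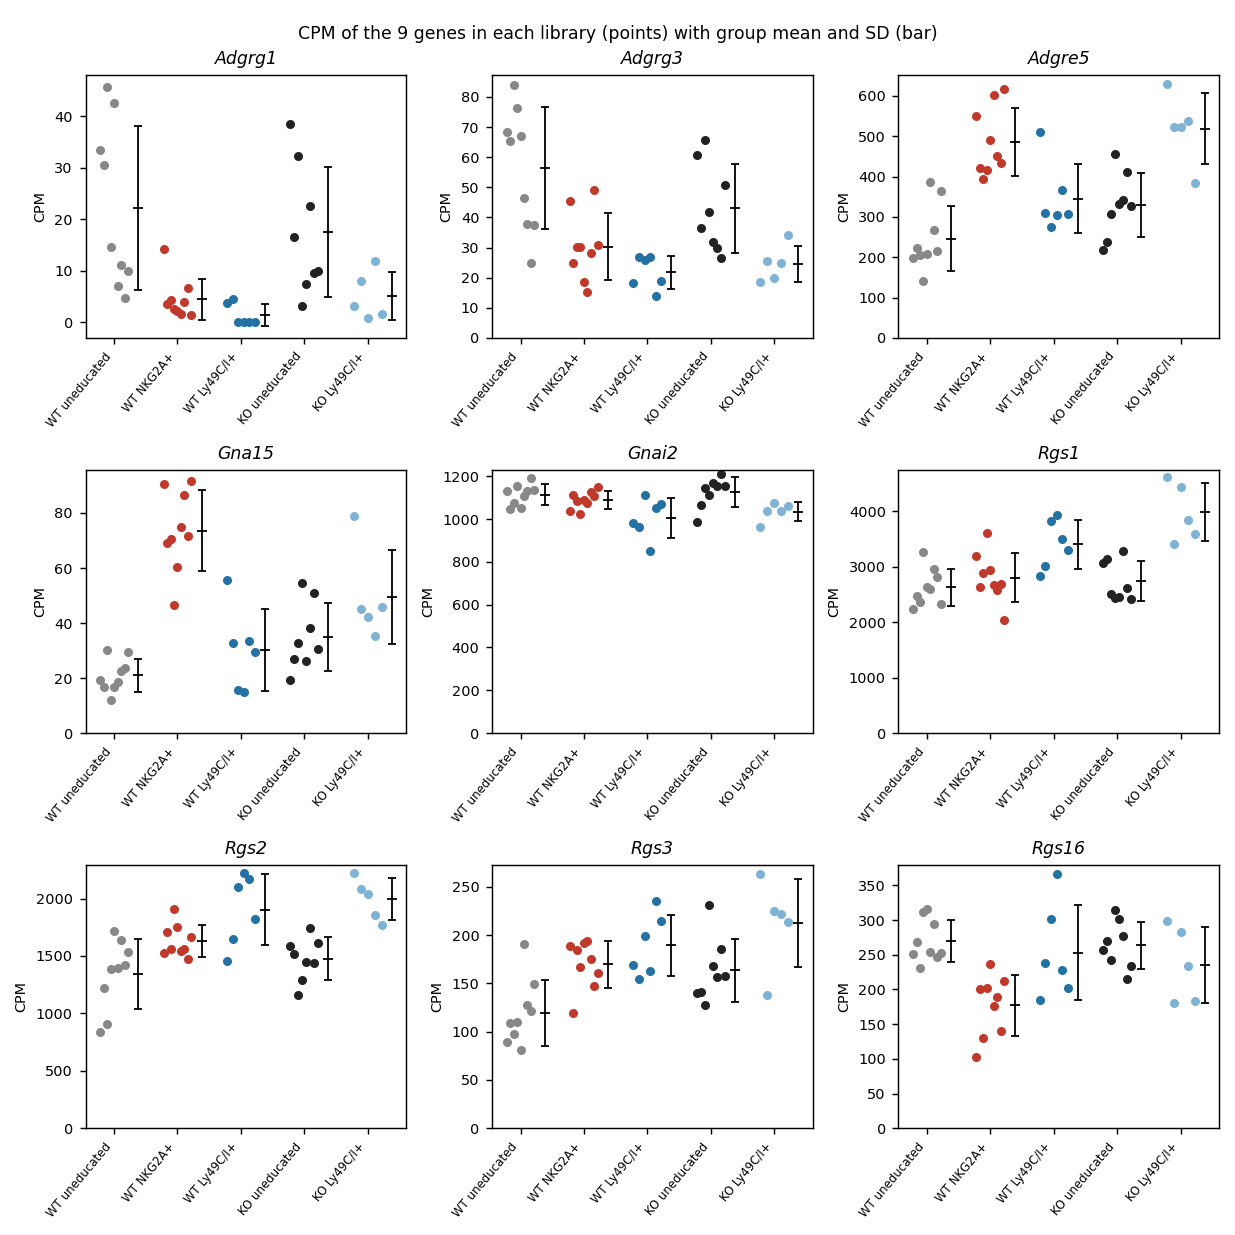
CPM (vertical axes, linear, from 0) of each of the 9 genes in each of 37 libraries (points) in 5 groups, with the group mean and SD beside them. Adgre5 and Gna15 do not overlap between WT uneducated and WT NKG2A+ libraries, Adgrg1 does not overlap between WT uneducated and WT Ly49C/I+ libraries, and Rgs1 and Rgs2 do not overlap between the 2 KO groups.

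Gna15 encodes a Gq family alpha subunit of blood cells that couples to many kinds of receptor. WT uneducated libraries ran from 12.2 to 30.3 CPM (median 19.1) and NKG2A+ libraries from 46.6 to 91.7 CPM (median 71.8), with no overlap and a log2 fold change of 1.82 (SE 0.172). WT Ly49C/I+ libraries ran from 14.9 to 55.5 CPM (median 31.1). Their highest value was again that of number 1, and the log2 fold change was 0.54 (SE 0.272), or 0.27 without that library.

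Across the KO libraries Gna15 ran from 19.4 to 54.5 CPM in uneducated cells (median 31.5) and reached 79.0, 45.1, 42.4, 35.2 and 45.8 CPM in Ly49C/I+ cells. All 5 lay above the uneducated median and 1, number 4, above all uneducated libraries. The log2 fold change of 0.50 (95% interval 0.00 to 1.01) did not pass the edgeR test (adjusted p = 0.165), nor did the exact permutation test pass (p = 0.0886). Without KO Ly49C/I+ library 4 the log2 fold change was 0.27 (adjusted p = 0.492).

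Gnai2 encodes the alpha subunit that couples chemokine receptors to Gi. It was the steadiest of the 9 genes, with group means between 1004 ± 94.2 CPM (SD, n = 6) in WT Ly49C/I+ and 1125 ± 70.7 CPM (n = 8) in KO uneducated libraries. Log2 fold changes against uneducated cells were -0.02 (SE 0.0501) in NKG2A+ and -0.13 (SE 0.0686) in WT Ly49C/I+ cells. The KO difference was -0.12 (95% interval -0.25 to 0.01, edgeR adjusted p = 0.193).

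Rgs1 and Rgs2 rose in Ly49C/I+ cells of KO mice. RGS1 restrains chemokine responses of lymphocytes, and RGS2 acts mainly on Gq. Rgs1 ran from 2422 to 3276 CPM in KO uneducated libraries (median 2558) and reached 4618, 3415, 4440, 3848 and 3597 CPM in the Ly49C/I+ libraries. All 5 stood above all 8 (6.05% of all genes were so separated), and the log2 fold change was 0.54 (SE 0.0944, edgeR adjusted p = 0.00149). With offsets for GC content and gene length the log2 fold change was 0.31 and the call was lost (adjusted p = 0.0517). Rgs2 ran from 1159 to 1744 CPM (median 1486) and reached 2223, 2087, 2038, 1859 and 1766 CPM, again with no overlap. Its log2 fold change was 0.43 (SE 0.0892, edgeR adjusted p = 0.00408), past the threshold in each of 22 alternative settings.

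The WT libraries gave values in the same direction for both genes. Rgs1 had medians of 2593 CPM in uneducated, 2687 CPM in NKG2A+ and 3397 CPM in Ly49C/I+ cells, with log2 fold changes of 0.11 (SE 0.092) and 0.39 (SE 0.0933). For the NKG2A+ comparison the sign turned with GC content and length offsets (-0.17). Rgs2 had medians of 1399, 1558 and 1963 CPM, with log2 fold changes of 0.29 (SE 0.115) and 0.52 (SE 0.147). Rgs2 was lowest in WT uneducated libraries 1 and 3, at 836 and 912 CPM.

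A list of 9 immediate early genes, added after the data were seen (Fos, Fosb, Jun, Junb, Egr1, Ier2, Dusp1, Atf3 and Nr4a1), was summed beside Rgs1 and Rgs2. They summed to 5199 to 11013 CPM in KO uneducated libraries (median 8112) and 8856 to 13909 CPM in KO Ly49C/I+ libraries (median 10421). In WT mice the medians were 6122 CPM in uneducated, 8528 CPM in NKG2A+ and 8353 CPM in Ly49C/I+ cells. The ranges of NKG2A+ and Ly49C/I+ libraries overlapped (6067 to 10180 and 7705 to 10720 CPM). The part of the immediate early genes in the Rgs1 and Rgs2 levels was not tested.

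Rgs3 and Rgs16 did not pass the test in KO mice. RGS3 acts on Gi and Gq, and RGS16 does so too and is induced in activated lymphocytes. Rgs3 ran from 127 to 231 CPM in KO uneducated libraries (median 157) and reached 264, 138, 225, 222 and 213 CPM in Ly49C/I+ libraries. On the log2 scale the difference was 0.38 (95% interval 0.07 to 0.68, edgeR adjusted p = 0.0877). It passed without KO uneducated library 4 (adjusted p = 0.0232) or without KO Ly49C/I+ library 5 (0.0192), which held the lowest value of its group. Of the 50-base stretches of Rgs3 transcripts, 11.4% also occur in Gm5763, so its count could be split. Rgs16 reached 298, 180.3, 282, 234 and 184 CPM against 216 to 314 CPM in uneducated libraries (median 263), a log2 fold change of -0.16 (95% interval -0.43 to 0.10, adjusted p = 0.413).

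In WT mice Rgs3 ran from 81.5 to 191 CPM in uneducated (median 109.8), 119.7 to 194 CPM in NKG2A+ (median 175) and 155 to 236 CPM in Ly49C/I+ libraries (median 184). Log2 fold changes were 0.52 (SE 0.14) and 0.68 (SE 0.161). Rgs16 was the RGS gene with the lower level in NKG2A+ cells. It ran from 230.4 to 315 CPM in uneducated (median 255) and from 102 to 237 CPM in NKG2A+ libraries (median 189), 8 of which lay below every uneducated library. On the log2 scale this was -0.59 (SE 0.128), against -0.08 (SE 0.132) in WT Ly49C/I+ cells, whose libraries ran from 184 to 366 CPM.

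**Figure D2:**
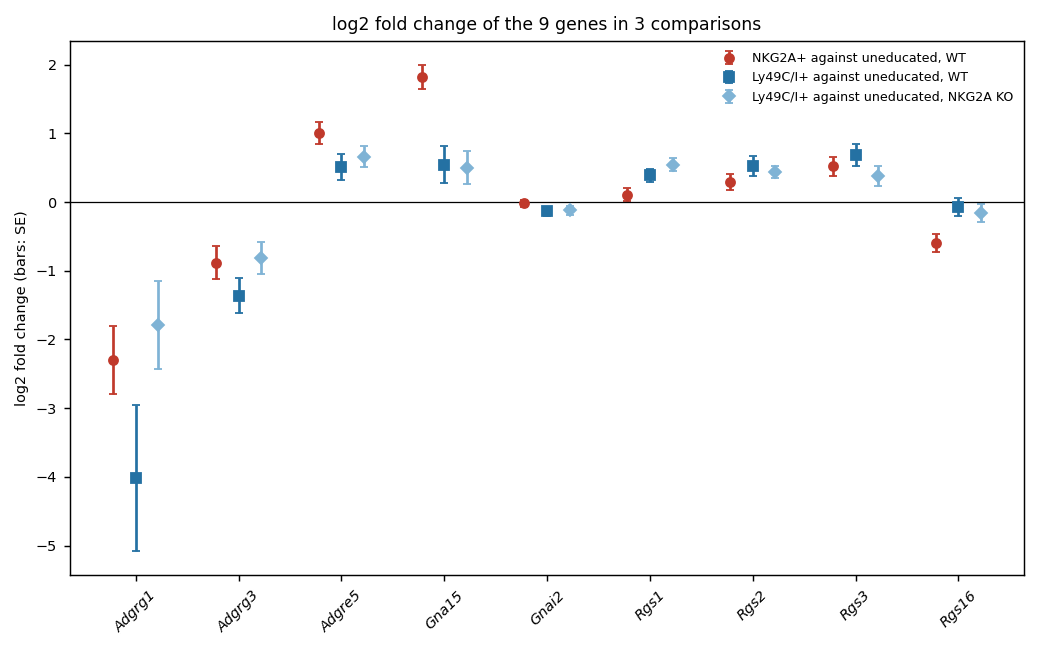
Log2 fold change (vertical axis) of each gene against uneducated cells in 3 comparisons, with SE as bars. Adgrg1 and Adgrg3 lie below 0 and Adgre5, Gna15, Rgs1, Rgs2 and Rgs3 above 0 in all 3, and only the KO comparison carries a test in the text.

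Across the list, 4 of 9 genes passed the test between KO Ly49C/I+ and KO uneducated cells, Adgre5, Rgs1 and Rgs2 upward and Adgrg3 downward. Of all 9299 genes tested there, 16.3% passed, 7.34% upward and 8.99% downward. All 9 genes passed the filter on low counts in that comparison, and their median log2 fold change was 0.38, against 0.02 over all genes. For 2 of 9, Rgs1 and Rgs2, the groups did not overlap, against the 6.05% given above. The WT comparisons chose the genes, so no count of the 9 passing is given for them. Of all genes, 15.0% passed between NKG2A+ and uneducated cells and 9.20% between Ly49C/I+ and uneducated cells. Between WT NKG2A+ and WT Ly49C/I+ cells, whose libraries also served to choose the genes, Gna15 was higher by a log2 fold change of 1.28 (SE 0.243), again as a description. Adgrg1 was under the filter there. The 2 WT contrasts share their uneducated libraries.

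The genotype comparisons set KO against WT libraries within a sort gate. They share WT libraries with the comparisons that chose the genes, so Adgrg1 and Gna15 are given as values alone. Among uneducated cells Gna15 was higher in KO than in WT mice by 0.74 (SE 0.214) on the log2 scale, and Adgrg1 differed by -0.34 (SE 0.479). None of the other 7 genes passed the edgeR test, in which 0 of 9288 genes (0%) passed and 619 had an unadjusted p under 0.05, while DESeq2 passed 11 genes. The largest of the 7 were Rgs3 at 0.46 (SE 0.153, adjusted p = 0.57) and Adgre5 at 0.43 (SE 0.179, adjusted p = 0.705).

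Among Ly49C/I+ cells Gna15 differed by 0.71 (SE 0.317), and Adgrg1 was under the filter. Adgre5 had a log2 difference of 0.59 (SE 0.154, edgeR adjusted p = 0.212), in a fit where 0 of 9344 genes (0%) passed and 992 had an unadjusted p under 0.05. DESeq2 passed 187 genes, with Adgre5 among them (adjusted p = 0.0337). Without WT Ly49C/I+ library 1, the one with the most macrophage marker reads, Adgre5 differed by 0.73 and passed in edgeR (adjusted p = 0.0294). Rgs1 differed by 0.23 (95% interval 0.02 to 0.44, adjusted p = 0.441).

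The genes also varied together among libraries of the same group. As a description over 37 libraries that share sort and sequencing, the deviations from group means of log2(CPM + 1) correlated at r = 0.65 for Gna15 with Adgre5, 0.56 for Rgs3 with Adgre5, 0.55 for Adgrg3 with Adgrg1 and 0.53 for Rgs2 with Rgs1. The lowest value was -0.61, for Rgs3 with Adgrg1, followed by -0.47 for Adgre5 with Adgrg3. Libraries with much Adgrg1 tended to hold much Adgrg3 and little Rgs3, in deviations pooled over the groups as well as over all 37 libraries. The pooled values need not hold in each group. Among KO Ly49C/I+ libraries, number 8 held the most Adgrg3 (34.0 CPM) with 1.48 CPM of Adgrg1.

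**Figure D3:**
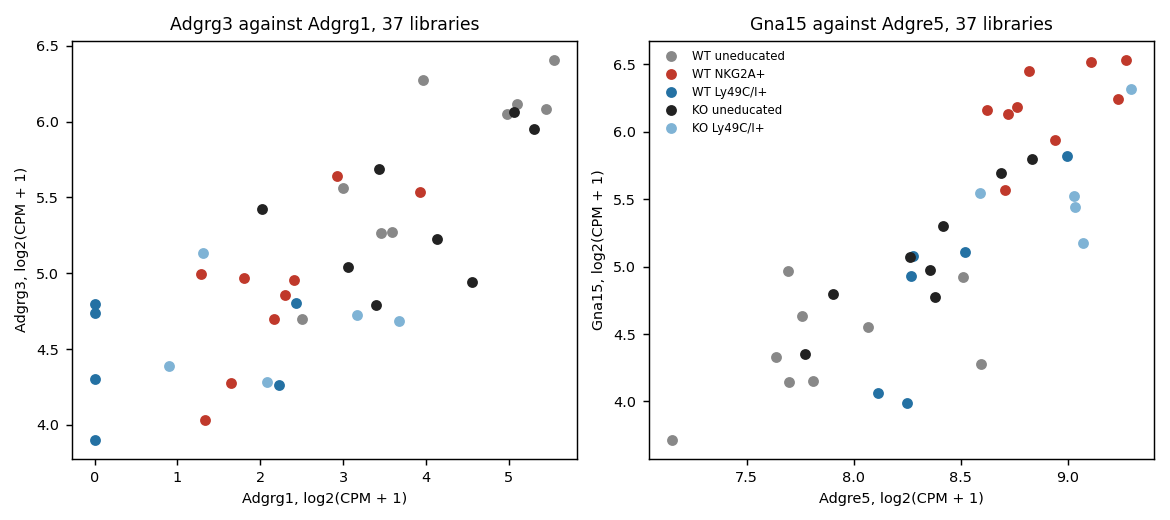
Each point is 1 of 37 libraries, coloured by group, on log2(CPM + 1) axes for Adgrg3 against Adgrg1 and Gna15 against Adgre5. Adgrg3 and Gna15 climb along their horizontal axes.

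For Adgrg1 and Gna15, the 5 genes most like each by Pearson's r of log2(CPM + 1) over 37 libraries were listed. Adgrg1 was closest to 1110032F04Rik, Epas1, Ifitm1, Tmem119 and the unnamed ENSMUSG00000119185 (r from 0.837 to 0.817). Epas1, which encodes HIF-2 alpha, averaged 70.0 CPM in uneducated and 10.1 CPM in Ly49C/I+ cells of WT mice. In KO mice it averaged 47.9 and 5.98 CPM. Gna15 was closest to the integrin gene Itgb7 (r = 0.887), then Il18r1, Klrb1b, Gzma and Serpinb6b. These r include the differences between groups, among them the WT differences by which Adgrg1 and Gna15 were chosen.

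The wider signaling machinery was followed in 138 other genes of 6 lists (adhesion receptors, G protein subunits, RGS proteins, other G protein regulators, effectors and other receptors of lymphocytes). Of these, 74 passed the filter between WT NKG2A+ and uneducated cells, and 18 rose and 4 fell (of all genes 7.47% rose and 7.56% fell). The lists were drawn up with earlier results of these data known, so these shares are a description and not independent evidence. Other receptors made up most of it, with 13 of 24 higher and 1 lower. Cxcr6, a chemokine receptor gene, rose by a log2 fold change of 2.86 (SE 0.38, edgeR adjusted p = 2.68e-05), S1pr1 by 1.84 and S1pr5 by 1.503, both sphingosine 1-phosphate receptors that guide lymphocytes out of tissue. Among other adhesion receptors only 3 of 26 passed the filter, and Adgrb2 fell by 1.07 on the log2 scale (SE 0.173, adjusted p = 0.000206).

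Between WT Ly49C/I+ and uneducated cells 8 of 71 genes rose and 2 fell (of all genes 4.50% rose and 4.70% fell). Adcy7, an adenylyl cyclase, Pde4b, a phosphodiesterase that degrades cAMP, and Arhgef1, an exchange factor with an RGS domain, rose by 0.56, 0.52 and 0.41 on the log2 scale. Between KO Ly49C/I+ and uneducated cells 6 of 71 rose and 5 fell (7.34% and 8.99% of all genes), and Adcy7 rose there too, by 0.53 (SE 0.124, edgeR adjusted p = 0.009). No other RGS gene passed in any of the 3 comparisons, with 4 or 5 of 17 tested. Gng11, a G protein gamma subunit gene, fell in all 3, by 1.80, 1.49 and 1.79 on the log2 scale. Its libraries did not overlap with the uneducated ones in any of them (2.07%, 2.46% and 6.05% of all genes had no overlap). It averaged 5.49, 6.84 and 5.24 CPM in the educated groups, and the 2 WT comparisons share their uneducated libraries.

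S1pr1 differed between the educated gates. In WT NKG2A+ cells it averaged 42.5 ± 13.0 CPM (SD, n = 9) against 12.0 ± 7.90 CPM in uneducated cells, and in WT Ly49C/I+ cells 4.27 ± 5.80 CPM (n = 6), a log2 fold change of -1.47 against uneducated cells that did not pass (edgeR adjusted p = 0.427). The direct comparison of NKG2A+ with Ly49C/I+ cells passed, with a log2 fold change of 3.31 (SE 0.828, edgeR adjusted p = 0.0379) and no overlap (1.03% of all genes were so separated, 2.73% passed and 1.31% passed upward). S1pr1 was named for its rise in these same NKG2A+ libraries and passed the filter of 5 CPM mainly through them. Its separation and p-value are therefore a description and not independent evidence. S1pr1 was not followed in the alternative settings. In KO mice S1pr1 fell in Ly49C/I+ cells by 0.98 on the log2 scale (adjusted p = 0.048), while S1pr5 rose by 1.03 (edgeR adjusted p = 0.00505). Of the 24 other receptors of lymphocytes tested in KO mice, 4 rose and 3 fell. Cx3cr1 rose most (1.22, adjusted p = 0.00308) and Ccr7 fell most (-2.16, adjusted p = 0.000642). Like S1pr1, Gpr183, a receptor for oxysterols, was higher in WT NKG2A+ than in WT Ly49C/I+ cells (0.64, edgeR adjusted p = 0.0237). It fell in KO Ly49C/I+ cells by 0.58 (adjusted p = 0.00431). The other named pathway genes are not given for the comparison of NKG2A+ with Ly49C/I+ cells, so these values are a description.

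**Figure D4:**
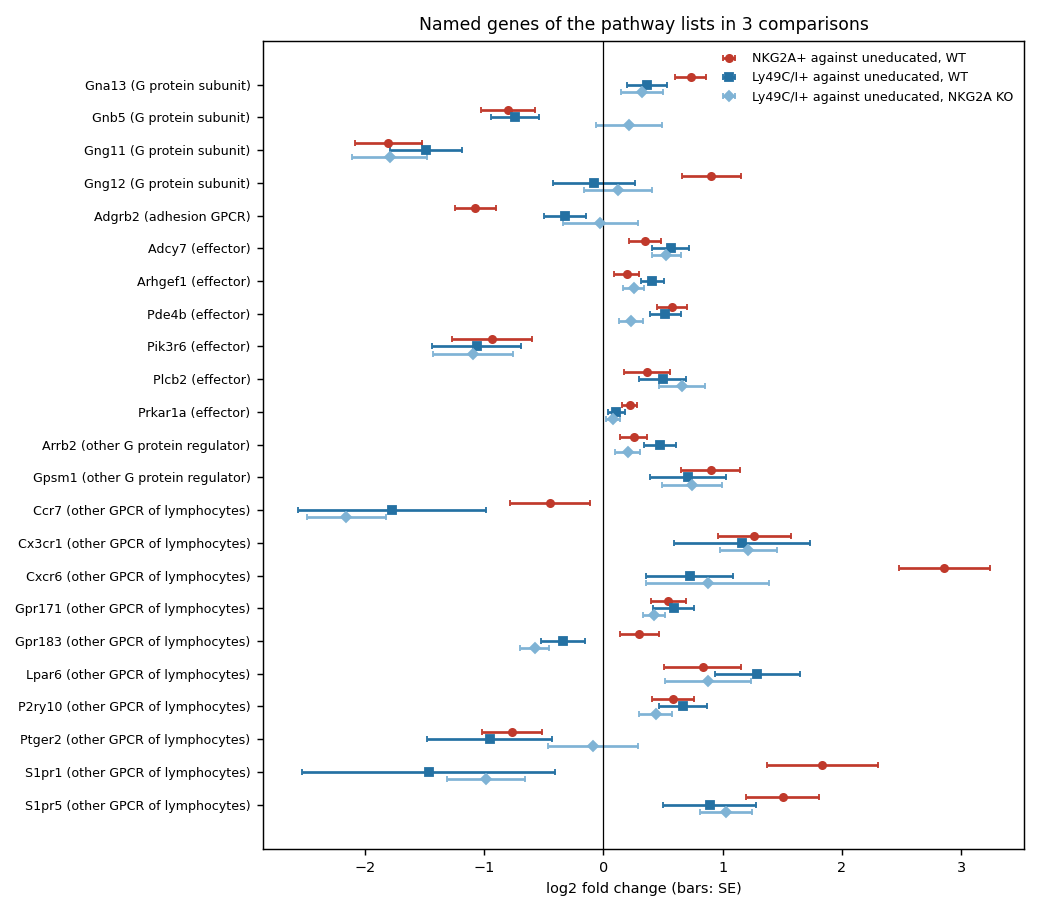
Log2 fold change (horizontal axis, bars SE) of the 23 named pathway genes in NKG2A+ and Ly49C/I+ cells of WT mice and Ly49C/I+ cells of KO mice, each against uneducated cells of the same genotype. Gng11 lies left of 0 in all 3 comparisons, and S1pr1 lies right of 0 in NKG2A+ cells and left of 0 in both Ly49C/I+ comparisons.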

How the data were processed

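Total RNA of sorted cells was amplified with the SMART-Seq v4 kit and made into Nextera XT libraries. The authors trimmed reads with Trim Galore 0.5.0, mapped them with STAR 2.7.1 to GRCm38 and deposited raw counts of reads per gene for 37 libraries, without normalization. For the counting program and its strand setting, the sources used here give nothing. The 5 summary lines of each file that name no gene were left out. CPM were computed on TMM-scaled library sizes. Groups were compared with edgeR 4.0.16 (R 4.3.3) by the quasi-likelihood test on genes that reached 5 CPM in 0.5 or more of the libraries of both groups together, fitting those groups alone, Benjamini-Hochberg adjustment and a threshold of 0.05. The authors also used edgeR, with CQN, which was not repeated here; splines on GC content and length served as an alternative. Their own table of the NKG2A+ comparison leaves out the libraries numbered 5, which were kept here. Exact permutation tests used log2(CPM + 1). Scripts were tested on simulated data. Other alternatives were DESeq2 1.42.0, the likelihood ratio test, RLE factors, other filters on low counts, all 5 groups in 1 fit, the replicate number as a block and each library left out in turn. Gene positions came from GENCODE (GRCm38) and promoters from RefSeq, which held 8 promoters for 6 of the 9 genes (not Adgre5, Gnai2 and Rgs1). Since the cDNA was amplified and carries no molecular identifiers, limits from counts cover counting error only. The 9 genes, the pathway lists and the marker lists were chosen with earlier results of these data known; 1 further gene of the set and the B lymphocyte markers are not reported here. Named pathway genes were up to 3 increases and 3 decreases of the largest size per list and comparison among those past the threshold; values of Klrc1, Klra9 and Klra3 check the sort.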

Additional observations from a re-analysis of the deposited data

Results flagged for a closer look

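Each of the 9 genes was examined in each of the 5 groups for a single library far from the others, by the gap to the nearest library as a share of the whole range. In 45 such tests 2 libraries passed the 95% limit, and chance alone passes about 1 in 20 groups. WT NKG2A+ library 1 held 14.2 CPM of Adgrg1, against 6.63 CPM in the next library. KO Ly49C/I+ library 4 held 79.0 CPM of Gna15, against 45.8 CPM in the next. In edgeR's interaction test of genotype with the Ly49C/I+ gate 0 of 9322 genes passed. The KO effect minus the WT effect was 2.25 (SE 1.19) on the log2 scale for Adgrg1, whose WT libraries had been used to choose it.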

How the results depend on the processing

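Adgre5 and Rgs2 kept their KO calls in each of 22 settings, and Rgs1 in 21. Adgrg3 lost its call in 9 (adjusted p 0.00888 to 0.118 over settings), among them no filter, all 5 groups in 1 fit and the replicate block. Adgrg1 gained a call in 4 (0.0293 to 0.403) and Rgs3 in 2 (0.0192 to 0.575). Between 3 and 6 of the 9 genes passed. Same-numbered libraries did not always deviate together (r from 0.0296 to 0.25 in KO and -0.0205 to 0.245 in WT mice), but the closest library bore the same number in 3 of 5 KO pairs and, in WT mice, in 6 of 9 pairs of NKG2A+ and 5 of 6 of Ly49C/I+ with uneducated cells and in 6 of 6 of NKG2A+ with Ly49C/I+, a hint from the data and not from the design; the replicate block gave 768 KO calls in place of 1519, or 656 with GC content and length offsets. For Adgrg1 in WT Ly49C/I+ cells the block gave -6.14. The number of genes called for WT Ly49C/I+ against uneducated cells was 451 without a filter, 1477 in DESeq2 and 1528 with all groups in 1 fit, and 466 to 1227 with a library left out (539 without uneducated 3, 564 and 466 without Ly49C/I+ 5 and 7). NKG2A+ against Ly49C/I+ gave 104 without a filter, 442 by the likelihood ratio test and 733 in DESeq2, and 147 to 306 with a library left out (168 and 163 without NKG2A+ 2 and 8; 154, 155 and 147 without Ly49C/I+ 2, 5 and 7). The KO comparison gave 889 without a filter and 967 to 1763 with a library left out (967 without Ly49C/I+ 4). Genotype comparisons gave 1 and 11 calls in uneducated cells and 60 and 187 in Ly49C/I+ cells by the likelihood ratio test and DESeq2, the latter 18 with all groups in 1 fit and 0 to 15 with a library left out (15 and 2 without WT 1 and KO 8); by either tool 1 of the 9 genes, Adgre5, then passed, and 0 to 1 with a library left out. The sign turned for Gnai2 between uneducated genotypes with GC content and length offsets (-0.053), and with a library left out for Rgs16 between uneducated genotypes (-0.0609 to 0.0151) and Ly49C/I+ genotypes (-0.201 to 0.0341), and for Rgs2 between Ly49C/I+ genotypes (-0.0014 to 0.12). The cause of these changes was not tested. RLE factors, a filter of 1 CPM and pseudocounts of 0.1 and 5 CPM changed no call named here.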
